A study of Arabidopsis thaliana with 6 samples.

Results

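WRKY proteins are plant transcription factors, and 52 Arabidopsis thaliana genes of this family, between WRKY1 and WRKY75, were examined here. They were listed by locus name, with earlier results of these data known. Of the 52, 48 had a probe set among the 21430 on the array, 41 were tested among 16210 probe sets in all, each at log2 4 or more on 3 or more of the 6 arrays, and 7 lay below that level. WRKY29, WRKY41, WRKY50 and WRKY51 had none and were not measured. Plants without a stated accession or genotype grew in soil under short days at 400 ppm CO2 for 6 weeks. In the low CO2 group they were then held at 100 ppm for 24 h, and in the ambient group they stayed at 400 ppm. Leaves gave 3 arrays per group, each from RNA of 4 to 5 pooled plants, under a series title that names photorespiratory stress. Nothing in the labels says that the pools were grown at separate times, so p values measure only the spread between these pools.

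All members share the WRKY domain, which carries a conserved heptad and a zinc finger and binds the W box, a short motif found in many promoters of defence and stress genes, those of WRKY genes included. Group I proteins carry a pair of such domains, group II proteins a single one, and group III proteins a single one with a different zinc finger. In leaves the family is best known for defence against pathogens, salicylate signalling, senescence, and responses to heat, drought and reactive oxygen. Several members are targets of mitogen-activated protein kinases and bind VQ proteins, small partners that alter their activity.

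Low CO2 replicate 1 stood apart. Across the tested probe sets, which share each array's processing, the correlation of its values was 0.980 to 0.986 with each ambient array and only 0.962 and 0.947 with the second and the third low CO2 array. Differences are therefore given with and without it, on the log2 scale unless named as folds. The 6 leaf mesophyll markers on the array lay between log2 13.05 and 14.2 and the 7 root markers between 3.34 and 5.00, levels that also depend on each probe set's affinity. Medians of the vascular markers were 6.08 to 6.50 in low CO2 and 6.17 to 6.43 in ambient air, and those of the trichome markers 5.27 to 5.78 and 5.30 to 5.63. Of the 3 trichome markers on the array, TRY was higher in low CO2 without overlap (0.56) and GL1 lower without overlap (-0.15). GL2 overlapped (0.11), and the part of these markers in the results below was not tested. Guard cell markers had medians of 6.28 to 6.53 in low CO2 and 6.70 to 7.06 in ambient air. Among them KAT1 (-1.04) and MYB60 (-0.35) were lower in low CO2 without overlap, FAMA was lower with overlap (-0.38), and OST1 was higher without overlap (0.45), and their part in the results below was not tested. In whole leaves, fewer cells of a type and less RNA per cell cannot be told apart.

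Most tested members had a higher mean in low CO2. The mean was higher for 36 of the 41 tested members and lower for 5, against 46.2% higher among all tested probe sets. The members were listed with earlier results of these data known, so the shares given here and below are no independent support. WRKY25, WRKY26, WRKY33, WRKY53 and WRKY40 had the highest differences, from 3.53 down to 1.64, while the lowest was -0.26, for WRKY23. The median difference was 0.28 over the members and -0.03 over all tested probe sets. Medians on low CO2 replicates 1, 2 and 3, each set against the ambient mean, were 0.26, 0.25 and 0.25, so the family's median did not set replicate 1 apart although single members did. At least 2-fold higher means were found for 8 members (19.5%, against 3.49% of all tested probe sets) and at least 2-fold lower means for 0.

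By limma with Benjamini-Hochberg adjustment over all tested probe sets at 0.05, 0 members were called higher and 0 lower, as were 0% of all tested probe sets in each direction. At an unadjusted p under 0.05, limma gave 14 members higher (34.1%, against 13.5% of all tested probe sets) and 0 lower (against 12.6%). The groups did not overlap, with low CO2 above, for 15 members (36.6%, against 14.6%) and with low CO2 below for 0 (against 14.3%). WRKY26 and WRKY40 are among these members, although they reached log2 4 on 3 arrays only with their low CO2 values. With no filter, limma gave 18 of 48 members higher (37.5%, against 11.4%) and 0 lower (against 10.8%) at an unadjusted p under 0.05. The groups then did not overlap for 17 above (35.4%, against 12.3%) and 0 below (against 12.6%). Without low CO2 replicate 1, limma called 16 members higher at an adjusted p under 0.05 (39.0%, against 16.8%) and 0 lower (against 18.5%), and by limma without that array 17 members were higher (against 21.7%) and 0 lower (against 24.9%) at an unadjusted p under 0.05. The adjusted p of the 16 lay between 0.00017 and 0.0488. That array was left out because it stood apart, which narrows the spread of its group, so these p values are likely too small.

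**Figure D1:**
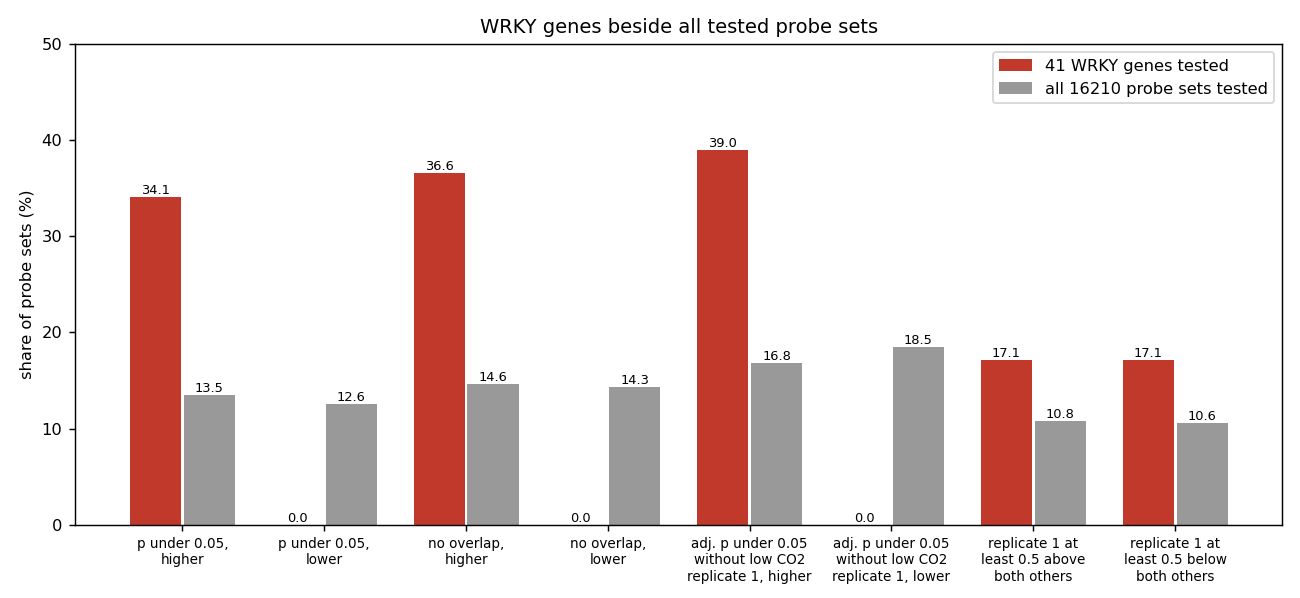
Share of the 41 tested WRKY genes (red bars) and of all 16210 tested probe sets (grey bars), in percent, that met each of 8 criteria. Besides the last pair of criteria, which place replicate 1 against the other low CO2 arrays, the WRKY bars exceed the grey bars for every criterion of higher expression (34.1% against 13.5%, 36.6% against 14.6% and 39.0% against 16.8%) and are at 0 for every criterion of lower expression.

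Values by array are given below in the order of replicates 1, 2 and 3. They are the authors' log2 values, so a difference of 1 is a 2-fold change, and levels of different probe sets are not compared. Adjusted p values are from limma over all 16210 tested probe sets.

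Group I held the highest differences of the family and, beside them, 5 of its 10 tested members within 0.25 of no difference. WRKY25 (AT2G30250_at), known for heat tolerance together with WRKY26 and WRKY33, stood at log2 7.29, 9.66 and 10.45 in low CO2 and at 6.13, 5.48 and 5.18 in ambient air. All 3 low CO2 arrays lay above the ambient ones, with replicate 1 nearer to them than to replicates 2 and 3. The means were 9.13 ± 1.65 (SD, n = 3) and 5.60 ± 0.49, an 11.6-fold difference (log2 3.53, SE 0.76, adjusted p = 0.118) that became 22-fold (log2 4.46) without low CO2 replicate 1 and fell to log2 2.88 without low CO2 replicate 3. WRKY26 (AT5G07100_at) was at 5.26, 6.89 and 7.37 in low CO2 and at 4.22, 4.02 and 3.86 in ambient air, values close to the bottom of the scale, where folds are least certain. Its groups did not overlap, and replicate 1 was again the lowest of the low CO2 arrays. The 5.57-fold difference of WRKY26 (log2 2.48, SE 0.50, adjusted p = 0.118) became 8.58-fold without low CO2 replicate 1, with an adjusted p of 0.00017, the smallest of the members in that fit, in a range up to 0.395 over the 6 omissions. The 0.395, from the fit without ambient replicate 3, was shared with WRKY25 and other members.

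WRKY33 (AT2G38470_at), a regulator of camalexin synthesis and of resistance to necrotrophic fungi, had values of 6.98, 7.98 and 8.14 in low CO2 and 6.43, 5.40 and 5.74 in ambient air. The groups did not overlap, and they came nearest at low CO2 replicate 1 (6.98) and ambient replicate 1 (6.43). Its difference was 1.84 (SE 0.37, adjusted p = 0.118), and 2.20 without low CO2 replicate 1. WRKY1, also called ZAP1, stood at 8.32, 8.27 and 8.16 in low CO2 against 7.88, 7.93 and 7.91, and WRKY20 at 8.12, 8.04 and 8.03 against 7.83, 7.80 and 7.92. Both were separated between the groups by small but even steps, of 0.34 (SE 0.10, adjusted p = 0.136) for WRKY1 and 0.21 (SE 0.10, adjusted p = 0.235) for WRKY20. The other tested members of the group were WRKY3 (0.35) and WRKY4 (0.14), both known in defence against necrotrophs, WRKY2 (0.04), WRKY44 (0.07), the trichome and seed coat regulator also called TTG2, and WRKY32 (0.01). Each of these overlapped between the groups.

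**Figure D2:**
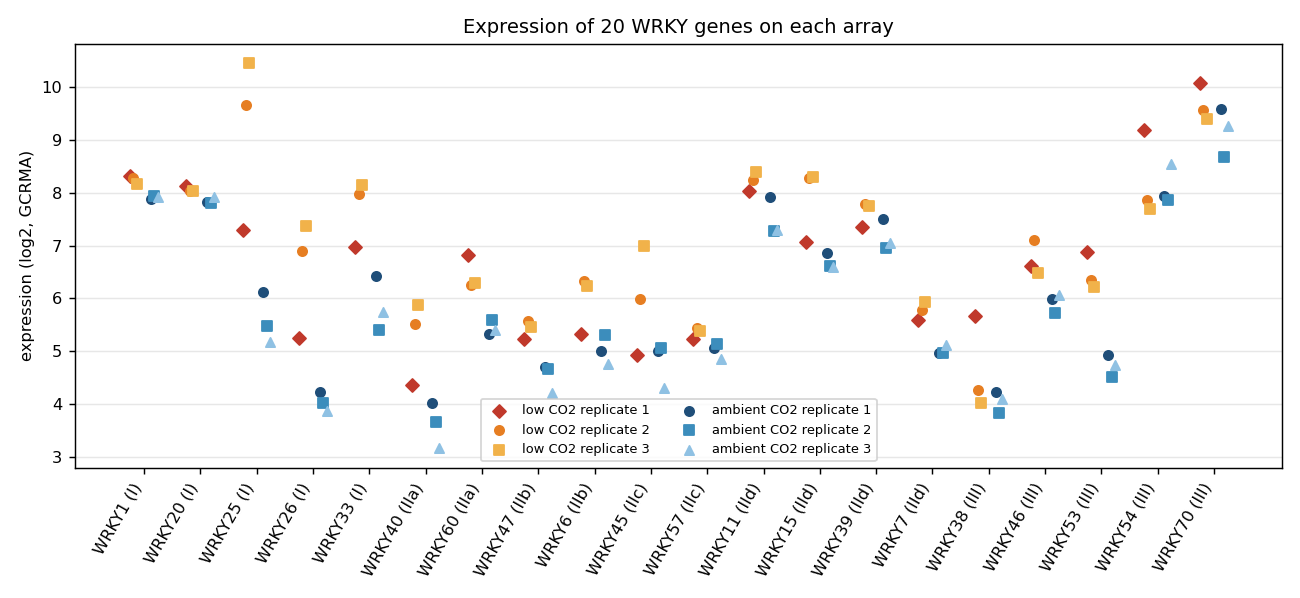
Expression (log2, GCRMA) of 20 WRKY genes on each of the 6 arrays, with the family group in brackets, red to yellow symbols for low CO2 and blue symbols for ambient CO2. Low CO2 replicate 1 (diamonds) is the lowest low CO2 array for WRKY25, WRKY26, WRKY33 and WRKY40, and the highest for WRKY38, WRKY53, WRKY54, WRKY60 and WRKY70.

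Group IIa comprises WRKY18, WRKY40 and WRKY60, whose proteins bind one another and act in abscisic acid and defence responses. Replicate 1 was the lowest low CO2 array for WRKY40 and the highest for WRKY18 and WRKY60. WRKY40 (AT1G80840_at), which is also known to act on genes of the mitochondrial stress response, stood at 4.37, 5.52 and 5.87 in low CO2 and 4.02, 3.67 and 3.16 in ambient air. Replicate 1 again lay just above the highest ambient array, and the difference was 1.64 (SE 0.41, adjusted p = 0.122), or 2.08 without low CO2 replicate 1. The ambient values of WRKY40 were close to the bottom of the scale, where folds are least certain. Those of ambient replicates 2 and 3 were below log2 4, so the gene was tested only through its low CO2 arrays. For WRKY60 (AT2G25000_at) the values were 6.83, 6.25 and 6.30 in low CO2 and 5.33, 5.60 and 5.41 in ambient air. Here replicate 1 was the highest of all arrays, and the 2.01-fold difference (log2 1.01, SE 0.18, adjusted p = 0.115) became 1.77-fold without it. WRKY18 (AT4G31800_at) was at 6.25, 5.30 and 5.04 in low CO2 and 6.10, 4.90 and 4.66 in ambient air. Replicate 1 was the highest array of each group and the groups overlapped, with a difference of 0.31 (SE 0.45) that turned to -0.05 without low CO2 replicate 1.

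Of the 3 tested members of group IIb, WRKY6 and WRKY47 were higher in low CO2 without overlap (66.7%, against 14.6% of all tested probe sets). With 3 genes, this share cannot be read as a trait of the group. WRKY6 (AT1G62300_at), known in senescence and as a repressor of the phosphate exporter gene PHO1, stood at 5.32, 6.32 and 6.24 in low CO2 and at 5.01, 5.30 and 4.76 in ambient air. Replicate 1 lay 0.02 above the highest ambient value, and the difference of 0.94 (SE 0.29, adjusted p = 0.136) became 1.26 without low CO2 replicate 1. WRKY47 was at 5.23, 5.57 and 5.45 against 4.70, 4.66 and 4.21, with all low CO2 arrays close together and a difference of 0.90 (SE 0.17, adjusted p = 0.115). WRKY42, which like WRKY6 is known to act on PHO1, differed by 0.28 (SE 0.23) with overlapping groups.

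Group IIc, with 8 tested members, had a median difference of 0.06. WRKY45 (AT3G01970_at), known in phosphate uptake and leaf senescence, was at 4.92, 5.98 and 7.0 in low CO2 and 5.00, 5.07 and 4.31 in ambient air. Replicates 2 and 3 lay above the ambient arrays and replicate 1 among them. The difference of 1.17 (SE 0.51, adjusted p = 0.197) was 1.70 without low CO2 replicate 1 and 0.66 without low CO2 replicate 3. WRKY57, known in drought tolerance and in jasmonate-induced senescence, stood at 5.23, 5.44 and 5.38 in low CO2 and 5.06, 5.14 and 4.86 in ambient air, a small step without overlap (0.33, SE 0.12, adjusted p = 0.166). The rest overlapped, between -0.26 for WRKY23, an auxin-responsive gene of embryo and root development, and 0.22 for WRKY48, a negative regulator of basal defence, with WRKY8 (0.09), WRKY12 (0.03), WRKY13 (-0.01) and WRKY71 (-0.02) between them.

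Group IId proteins bind calmodulin. WRKY7, WRKY11 and WRKY15 of its 6 tested members were higher in low CO2 without overlap, and 0 were lower without overlap. Of all tested probe sets, 14.6% were above and 14.3% below without overlap. With 6 genes, this count is too small to be read as a trait of the group. WRKY15 (AT2G23320_at), known in osmotic and oxidative stress, stood at 7.06, 8.28 and 8.30 in low CO2 and 6.86, 6.62 and 6.60 in ambient air. Replicates 2 and 3 were nearly equal, and replicate 1 lay close to ambient replicate 1. Its difference was 1.18 (SE 0.34, adjusted p = 0.134), and 1.60 without low CO2 replicate 1. WRKY7 and WRKY11 are both known as negative regulators of resistance to Pseudomonas. For WRKY7 the values were 5.59, 5.79 and 5.93 against 4.97, 4.96 and 5.12, and for WRKY11 8.04, 8.25 and 8.39 against 7.92, 7.28 and 7.30. The step was even over the WRKY7 arrays (0.75, SE 0.13, adjusted p = 0.108), whereas WRKY11 was raised on ambient replicate 1 (0.72, SE 0.20, adjusted p = 0.133). WRKY39, known in heat tolerance, was at 7.35, 7.79 and 7.75 against 7.51, 6.96 and 7.05 and overlapped through low CO2 replicate 1 and ambient replicate 1 (0.46, SE 0.19, adjusted p = 0.192). WRKY21 (0.13) and WRKY17 (-0.06), the close relative of WRKY11, overlapped too.

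In group IIe the 5 tested members differed by -0.08 to 0.25. Of them 0 were without overlap, against 14.6% above and 14.3% below of all tested probe sets. With 5 genes, this count is too small to be read as a trait of the group. WRKY22 (0.25, SE 0.16), which acts with WRKY29 downstream of the flagellin receptor and is also known in dark-induced senescence, was 0.41 higher without low CO2 replicate 1. WRKY69 (0.15), WRKY65 (0.08), WRKY14 (0.07) and WRKY27 (-0.08), the last known in responses to bacterial wilt, made up the rest.

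Group III, which holds the regulators of salicylate defence and senescence, had a median of 0.55 over 6 tested members. By array, from replicate 1 to replicate 3, its medians were 0.99, 0.31 and 0.10, and the group median was 0.20 without low CO2 replicate 1. WRKY53 (AT4G23810_at), a regulator of early leaf senescence, stood at 6.87, 6.34 and 6.22 in low CO2 and 4.92, 4.52 and 4.74 in ambient air. The groups were far apart relative to their spread, and replicate 1 was the highest array. With means of 6.48 ± 0.34 and 4.72 ± 0.20, the 3.37-fold difference had the smallest adjusted p of the members (0.0719, in a range from 0.000984 to 0.395 over the 6 omissions). The value of 0.395 came from the fit without ambient replicate 3, where WRKY25, WRKY26, WRKY33 and other members had the same adjusted p. In that fit WRKY53 differed by 1.76 (SE 0.25). WRKY46 (AT2G46400_at), which acts with WRKY53 and WRKY70 in basal defence, had values of 6.62, 7.10 and 6.49 against 5.98, 5.73 and 6.07. It was highest on replicate 2, did not overlap and differed by 0.81 (SE 0.19, adjusted p = 0.118).

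For the other tested members of group III, the difference shrank or turned negative without low CO2 replicate 1. WRKY38 (AT5G22570_at), a negative regulator of basal defence that interacts with the histone deacetylase HDA19, was at 5.67, 4.27 and 4.02 in low CO2 and at 4.22, 3.84 and 4.10 in ambient air. Replicate 1 stood far above the ambient range, replicate 2 lay just above it and replicate 3 within it, and the difference of 0.60 (SE 0.41, adjusted p = 0.375) was 0.09 without it. WRKY70 (AT3G56400_at), a regulator at the meeting point of salicylate and jasmonate signalling, had 10.08, 9.57 and 9.39 in low CO2 against 9.58, 8.67 and 9.26. Replicate 1 was the highest array and replicates 2 and 3 lay within the ambient range (0.51, SE 0.28, adjusted p = 0.276; 0.31 without low CO2 replicate 1). WRKY54 (AT2G40750_at), which acts with WRKY70 in restraining salicylate synthesis and senescence, was at 9.19, 7.86 and 7.70 against 7.94, 7.86 and 8.55. Its difference of 0.13 (SE 0.41, adjusted p = 0.854) turned to -0.34 without low CO2 replicate 1. WRKY55, which lies next to WRKY54 on chromosome 2 in the RefSeq gene table of TAIR10.1, stood at 5.84, 5.18 and 5.31 against 5.20, 5.37 and 5.44. These neighbours were both highest on low CO2 replicate 1 and at or below the ambient means on replicates 2 and 3.

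**Figure D3:**
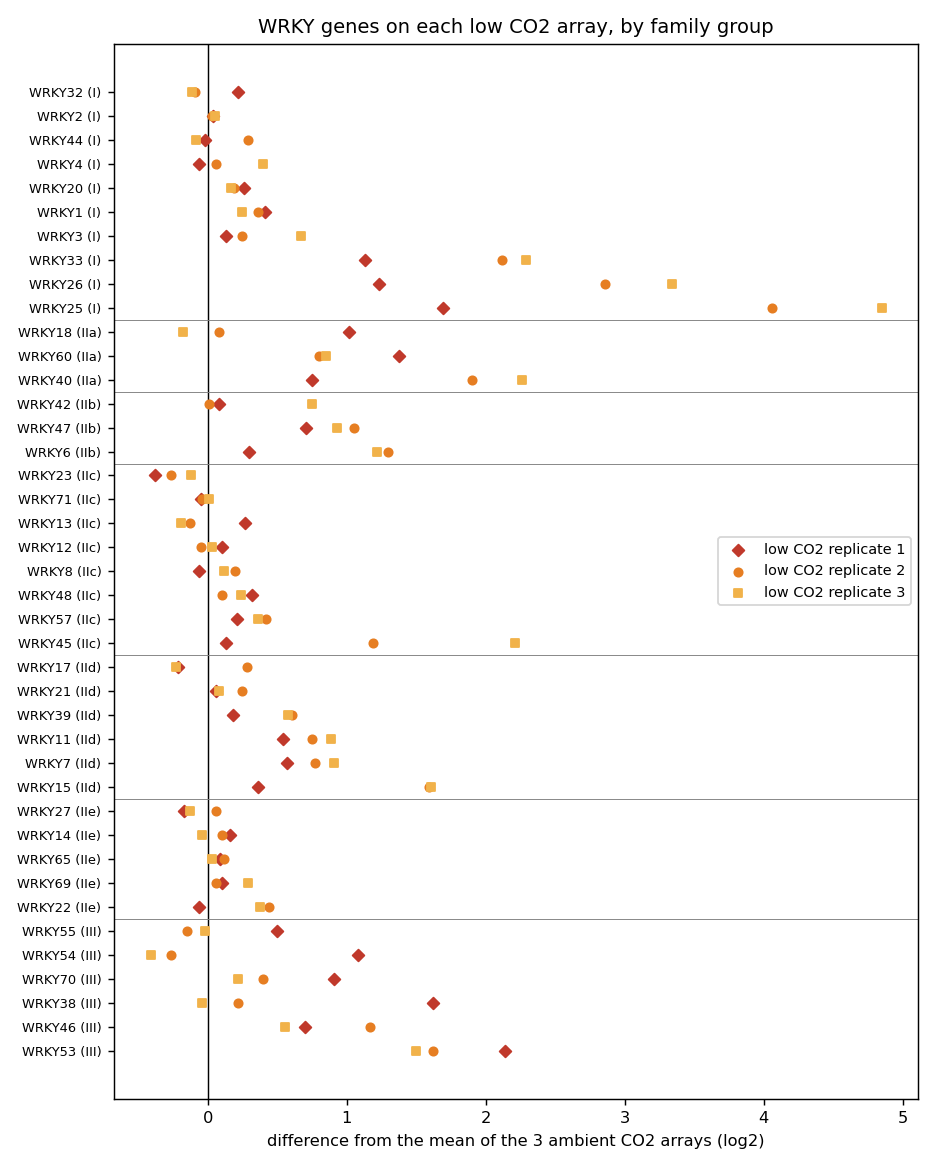
Difference of each low CO2 array from the mean of the 3 ambient arrays (log2) for the 41 tested WRKY genes, ordered by family group and by the group difference, with the vertical line at no difference. In group III replicate 1 (diamonds) lies right of replicates 2 and 3 for 5 of 6 genes, and in group IId it lies right of both for 0 of 6.

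Low CO2 replicate 1 went further from the ambient mean than replicates 2 and 3, in the direction of the group difference, for 16 of the 41 members (39.0%, against 20.0% of all tested probe sets). For many of these the group difference was near 0. Among the 15 members that differed by at least 0.5, replicate 1 was the furthest array for 4, WRKY38, WRKY53, WRKY60 and WRKY70 (26.7%, against 5.15% of the 3396 probe sets with such a difference). That difference includes replicate 1, so a high replicate 1 favours both conditions at once. Without low CO2 replicate 1, WRKY53 (1.56) and WRKY60 (0.83) still differed by at least 0.5, whereas WRKY38 (0.09) and WRKY70 (0.31) did not. Replicate 1 was the least changed array in the same direction for 14 members (34.1%, against 38.1%), between the others for 6 (14.6%, against 12.6%), and on the other side of the ambient mean for 5 (12.2%, against 29.4%). These shares describe 1 array and carry no test.

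Whatever the direction of the group difference, replicate 1 lay at least 0.5 above both other low CO2 arrays for 7 members (17.1%, against 10.8%) and at least 0.5 below both for 7 (17.1%, against 10.6%). The former were WRKY18, WRKY38, WRKY53, WRKY54, WRKY55, WRKY60 and WRKY70, that is 5 of the 6 tested members of group III and 2 of the 3 of group IIa. The latter were WRKY6, WRKY15, WRKY25, WRKY26, WRKY33, WRKY40 and WRKY45, of which 3 belong to group I. The widest gaps to the nearer of the other arrays were 1.40 for WRKY38 and 1.34 for WRKY54 above, and -2.38 for WRKY25 and -1.63 for WRKY26 below. This criterion was added after the values had been seen.

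**Figure D4:**
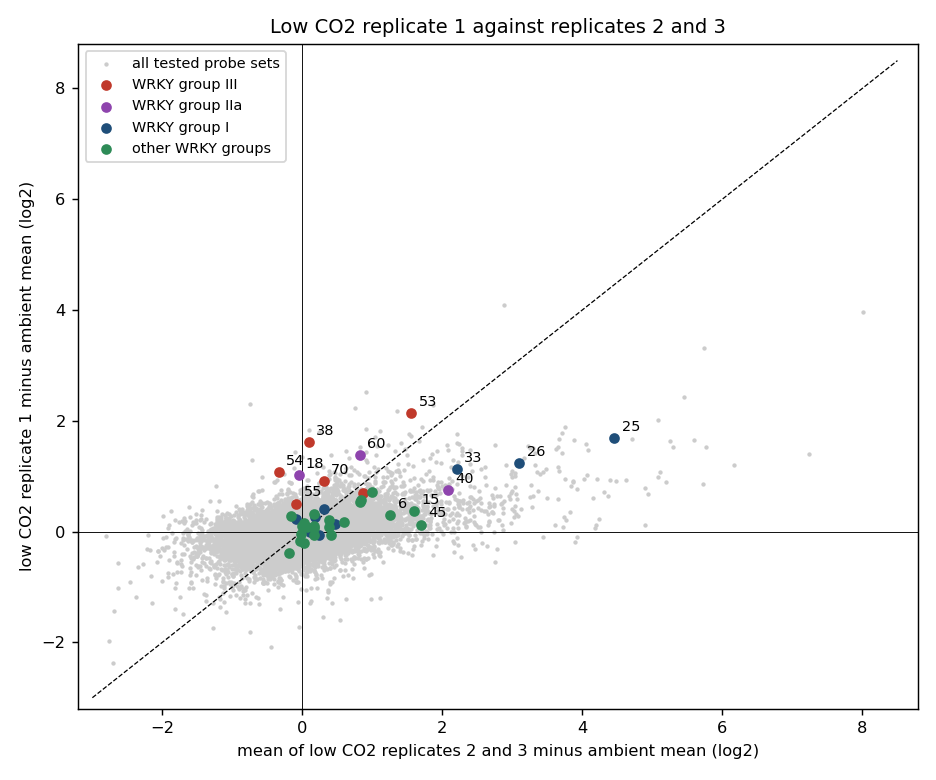
Low CO2 replicate 1 minus the ambient mean (vertical axis, log2) against the mean of low CO2 replicates 2 and 3 minus the ambient mean (horizontal axis, log2), for all tested probe sets (grey) and for WRKY genes coloured by group; both axes use the same ambient arrays, and the dashed line marks equal differences. Numbers name the 14 WRKY genes for which replicate 1 lies at least 0.5 above or below both other low CO2 arrays, 7 on each side of the line.

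The 7 members below the level needed for testing had values between log2 3.17 and 4.61, near the bottom of the range. WRKY30, a stress and senescence gene of group III, was at 3.93, 4.16 and 4.61 in low CO2 and 3.58, 3.50 and 3.61 in ambient air. Unlike most tested members of that group, it had replicate 1 as the lowest low CO2 array. WRKY28, known to act on the salicylate synthesis gene ICS1, was at 3.86, 3.82 and 4.17 against 3.56, 3.53 and 3.63. Both were higher on every low CO2 array than on any ambient array, as were 12.3% of all 21430 probe sets. Steps this near the bottom of the range are uncertain. WRKY75, known in phosphate starvation and senescence, overlapped at 3.17, 4.16 and 3.62 against 3.30, 3.51 and 3.29, as did WRKY31, WRKY35, WRKY61 and WRKY72. Of 20 WRKY loci outside the 52, 14 had a probe set and 6 were tested. The mean in low CO2 was higher for 3 of these 6 and lower for 3, with a median difference of -0.02.

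Genes of kinases and partner proteins that act on or with WRKY proteins were described from a list of 18, all tested. The list was drawn up with earlier results of these data known, so its shares are no independent support. By limma 4 were higher (22.2%, against 13.5% of all tested probe sets) and 0 lower (against 12.6%) at an unadjusted p under 0.05, and 0 passed when adjusted. The list median was 0.11, against -0.03 over all tested probe sets. SIB1, a VQ protein that binds WRKY33, stood at 8.96, 10.61 and 11.27 in low CO2 and at 7.53, 6.71 and 7.60 in ambient air. Replicate 1 lay between the ambient arrays and replicates 2 and 3, as it did for WRKY33, and the 8-fold difference of SIB1 (log2 3.00, SE 0.58, adjusted p = 0.115) became 12.6-fold without low CO2 replicate 1. SIB2 went the other way with overlapping groups (-0.73, SE 0.35, adjusted p = 0.228), and its difference was -1.12 without low CO2 replicate 1. JAV1, a VQ protein of jasmonate defence, had 6.81, 6.93 and 7.47 against 6.17, 5.72 and 5.72 (1.20, SE 0.22, adjusted p = 0.115). MPK11, a kinase related to MPK4, stood at 5.44, 5.97 and 5.51 against 4.69, 4.65 and 4.67, and MPK3, a kinase that phosphorylates WRKY33, at 10.25, 10.31 and 10.43 against 9.82, 9.79 and 9.76. Both kinase genes were higher on every low CO2 array, by 0.97 (SE 0.16, adjusted p = 0.0973) and 0.54 (SE 0.10, adjusted p = 0.115). Without low CO2 replicate 1, limma called 4 of the 18 higher (22.2%, against 16.8%) and 5 lower (27.8%, against 18.5%), the latter MPK4, MKK4, MKK5, SIB2 and HDA19.

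Genes reported as targets of WRKY proteins numbered 22, of which 15 were tested. This list too was drawn up with earlier results of these data known, so its shares only describe the genes listed. By limma 6 were higher (40.0%, against 13.5% of all tested probe sets) and 0 lower (against 12.6%) at an unadjusted p under 0.05, and 0 passed when adjusted. The list median was 0.31, against -0.03 over all tested probe sets. OM66, a gene of the outer mitochondrial membrane, was at 6.10, 8.27 and 8.17 in low CO2 and 4.80, 4.45 and 4.47 in ambient air, and AOX1A, the alternative oxidase, at 10.48, 12.44 and 12.83 against 8.76, 9.26 and 8.99. Both had replicate 1 as the lowest low CO2 array, clear of the ambient ones, with differences of 2.94 (SE 0.56, adjusted p = 0.115) and 2.91 (SE 0.57, adjusted p = 0.116) that were 3.65 and 3.63 without low CO2 replicate 1. FRK1, a receptor kinase gene of early defence, had 5.41, 5.09 and 5.03 against 4.49, 4.49 and 4.73, highest on replicate 1 (0.61, SE 0.14, adjusted p = 0.119). NPR1, the salicylate receptor gene, stood at 7.98, 8.12 and 8.33 against 7.71, 7.65 and 7.60 (0.49, SE 0.13, adjusted p = 0.126). PR1, a marker of salicylate defence, ran from 4.85 to 7.87 in low CO2 and from 5.48 to 8.39 in ambient air and overlapped widely. Without low CO2 replicate 1, 5 of the 15 were called higher by limma (33.3%, against 16.8%) and 0 lower (against 18.5%), with 7 higher (against 21.7%) and 0 lower (against 24.9%) at an unadjusted p under 0.05.

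**Figure D5:**
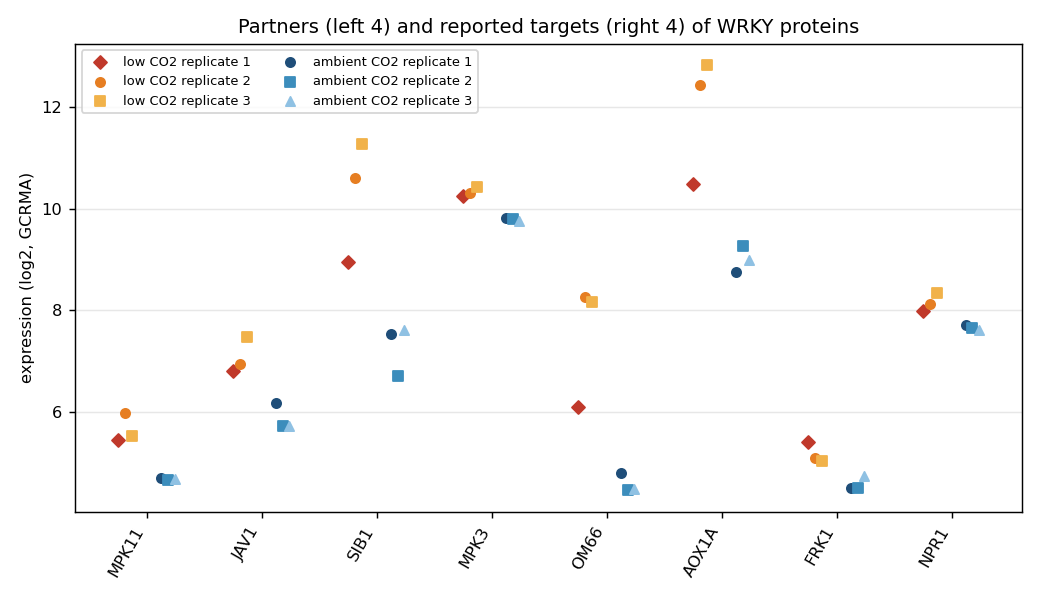
Expression (log2, GCRMA) on each of the 6 arrays of the 4 partner genes (left) and the 4 reported target genes (right) with the smallest p of their list, red to yellow for low CO2 and blue for ambient CO2. All 8 genes are higher on every low CO2 array than on any ambient array, which the choice by p favours. Over the whole lists this held for 5 of 18 partner genes (27.8%) and 6 of 15 target genes (40.0%), against 14.6% of all tested probe sets. Low CO2 replicate 1 (diamonds) lies well below replicates 2 and 3 for SIB1, OM66 and AOX1A.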

How the data were processed

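Expression was measured on 6 Affymetrix arrays, 3 per group, hybridised with biotin-labelled cRNA from 5 µg total RNA per the labels' protocols. The authors deposited log2 values; the submitters' processing notes name GCRMA, without a version. GCRMA corrects background, normalizes between arrays and summarizes probes, so weak probe sets lie near a common floor. The log base was read from the values (2.62 to 14.2), and array medians lay between 6.07 and 6.11. No source used here gives the probe grouping or the genome build, so no coordinates or sequences are printed, and WRKY domain and W box counts were not made here.

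Groups and replicate numbers came from the labels. Same-numbered arrays' deviations from their group means correlated at -0.19, 0.02 and -0.20, so the numbers were not taken as pairs. Low CO2 was compared with ambient CO2 by limma 3.58.1 in R 4.3.3 (lmFit, eBayes, two-sided, Benjamini-Hochberg over 16210 probe sets), tested on simulated data. The simulated arrays held independent normal noise and none stood apart, so they say nothing about the effect of low CO2 replicate 1. With 3 arrays a group, exact permutation allows no p under 0.1 and was not used. Members matched RefSeq TAIR10.1 for 52 of 52 loci, and 0 share all values with another probe set. Family groups follow the family's usual classification, not sequences read here; WRKY45, sometimes put in group I, is placed in IIc. Values on every array are given for the 16 members with the smallest p, those with replicate 1 furthest and a difference of at least 0.5, and the 4 with the highest mean, and in lists the 4 with the smallest p; WRKY18, WRKY55, WRKY28, WRKY30, WRKY75 and PR1 were added after their values were seen. Members and lists were chosen with earlier results of these data known. Plots used matplotlib 3.10.9 (Python 3.11.15).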

Additional observations from a re-analysis of the deposited data

How the results depend on the processing

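Across 13 alternatives, the members called by limma stayed at 0 except without low CO2 replicate 1 (0 to 16 over the 6 omissions) and with array weights (21), whose estimation did not converge and gave low CO2 replicate 2 a weight of 40.4. With array weights 20 members (48.8%) were called higher and 1 lower (2.44%), beside 4798 higher (29.6%) and 5573 lower (34.4%) of all tested probe sets. At an unadjusted p under 0.05 that fit gave 24 members (21 higher and 3 lower, or 51.2% and 7.32%, against 31.2% and 36.5% of all tested probe sets), 14 partner genes (8 higher and 6 lower) and 10 target genes (9 higher and 1 lower). Over the omissions these unadjusted counts ran from 12 to 17 members (at most 1 lower), against 6.74% to 21.7% higher and 5.81% to 24.9% lower of all tested probe sets, from 4 to 10 partner genes (the 10 being 5 higher and 5 lower) and from 5 to 8 target genes. Members without overlap then ran from 17 to 22 (at most 2 below), against 16.1% to 28.5% above and 15.8% to 35.1% below of all tested probe sets. The median difference was 0.26 with no filter, 0.34 with a floor of log2 5, 0.29 after quantile normalization, 0.25 after centring each array on its median, 0.24 with array weights, and 0.23 to 0.33 over the omissions. Members with a higher mean numbered 35 after quantile normalization, 34 after centring and 32 without low CO2 replicate 1. Replicate 1 as the furthest array was found for 14 to 17 members when an ambient array was left out, and for 7 above and 7 below both other low CO2 arrays by the criterion of 0.5. WRKY54 reversed, to -0.34 without low CO2 replicate 1 (-0.34 to 0.41 over the omissions) and to -0.40 with array weights. Without low CO2 replicate 1 the sign also turned for WRKY18 (-0.05), WRKY55 (-0.09), WRKY32 (-0.10), WRKY12 (-0.01) and WRKY17 (0.02). With the replicate number as a block, 0 members were called, 14 were higher and 0 lower at an unadjusted p (34.1%, against 10.6% higher and 9.32% lower of all tested probe sets), 4 partner and 7 target genes were higher, and the median stayed at 0.28. The cause of these changes was not tested. Arrays carry no counts, and their number limits the precision.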
